A study of Mus musculus with 8 samples.

Results

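The genes described here are 39 genes of synaptic vesicle release in the mouse retina. They were chosen by name as the ribbon and active zone scaffold, the priming factors, the complexins, the SNARE proteins, the synaptotagmins, the vesicle proteins and the proteins of vesicle recycling. All 39 were found among the 18058 genes of the deposited table, and all 39 passed the filter on low values that left 17636 genes for testing.

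Total RNA was sequenced from retinae of adult mice, with 4 WT libraries and 4 quadruple KO libraries named A to D within each genotype. The quadruple KO mice lack 4 components of the extracellular matrix, the proteoglycans brevican and neurocan (genes Bcan and Ncan) and the glycoproteins tenascin-C and tenascin-R (genes Tnc and Tnr), and came from crosses between single knockout lines. The WT mice were of the 129S2/SvPasCrl strain, the labels name no treatment, and retinae were pooled before RNA extraction. Neither the sex of the mice in a library nor the number of retinae per library was given in the sources used here, so the p-values measure the spread between these libraries.

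Photoreceptors and bipolar cells release glutamate continuously at ribbon synapses, where an electron-dense ribbon tethers vesicles close to the release site. Amacrine and ganglion cells form conventional synapses without a ribbon, as most neurons of the brain do. Both kinds of synapse use SNARE proteins, complexins, Munc13 and RIM proteins, but they rely on different paralogs for several of them. Ctbp2, Cplx3, Cplx4, Stx3, Rims2, Unc13b and Sv2b were taken as ribbon-enriched, and Cplx1, Cplx2, Stx1a, Rims1, Unc13a, Sv2a, Syn1, Syn2 and Syn3 as conventional.

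Coding sequence is shown for Ctbp2 and Stx3, because each encodes several forms that gene-level values cannot separate, and for the complexins, whose ribbon and conventional forms are separate genes with values of their own. Ctbp2 gives rise to RIBEYE, the main protein of the ribbon, and to the transcriptional corepressor CtBP2 from separate first coding exons. The GENCODE transcript with 988 codons (Ctbp2-214) has 1687 coding bases of its own and shares its last 1280 coding bases with the transcript of 445 codons (Ctbp2-201). The first 45 coding bases of each lie on the minus strand of chromosome 7 in GRCm39, at chr7:132616889-132616933 and chr7:132627455-132627499, with the start codon in capitals.
Ctbp2-214: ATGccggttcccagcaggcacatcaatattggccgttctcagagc
Ctbp2-201: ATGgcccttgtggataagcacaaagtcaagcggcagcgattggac

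The complexins differ at their carboxy terminus, since those of ribbon synapses end in a farnesylation box that anchors them to membrane. The last 45 coding bases, stop codon included, are given for Cplx3 (chr9:57509520-57509564, minus strand), Cplx1 (chr5:108667995-108668039, minus strand) and Cplx2 (chr13:54527478-54527522, plus strand), with the last 4 codons before the stop in capitals. Cplx1 and Cplx2 shared these 4 codons, and Cplx3 had others.
Cplx3-201: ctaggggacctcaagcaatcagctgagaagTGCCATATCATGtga
Cplx1-201: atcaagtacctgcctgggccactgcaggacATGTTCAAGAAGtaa
Cplx2-201: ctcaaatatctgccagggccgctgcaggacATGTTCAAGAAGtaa

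Stx3, the syntaxin of ribbon terminals, is spliced into transcripts that share their first 677 coding bases and then part. In the 45 bases after that point 21 bases differ, shown in capitals, at chr19:11760228-11760272 for Stx3-203 and chr19:11760454-11760498 for Stx3-202, both on the minus strand. The values below sum all transcripts of a gene.
Stx3-203: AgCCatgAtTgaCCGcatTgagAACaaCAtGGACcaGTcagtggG
Stx3-202: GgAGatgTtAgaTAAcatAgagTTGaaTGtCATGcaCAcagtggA

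The estimated depth was 23.8 to 40.6 M reads in WT and 38.9 to 52.5 M reads in the quadruple KO. The genotype was checked first. Ncan was at 688 ± 94.0 normalized counts in WT and fell to 0.39 ± 0.45 (SD, n = 4) upon knockout, Bcan at 258 ± 54.7 and 15.0 ± 4.79, and Tnr at 5856 ± 340 and 2509 ± 95.1, whereas Tnc was at 1265 ± 330 and 1175 ± 104, so that the gene-level value of Tnc does not separate the genotypes. By exon, the paper reports loss of sequence at the Bcan, Ncan, Tnc and Tnr alleles. Its western blots of postnatal retinae did not detect these proteins in the quadruple KO. All 7 rod markers were in the table and summed to between 1271562 and 1835447 normalized counts per library. WT B and WT C stood apart from the other 6 libraries. RNA of the signal recognition particle took 19.3% and 14.8% of their normalized counts against 6.82% to 8.69% elsewhere, and mitochondrially encoded mRNAs 0.402% and 0.341% against 1.28% to 1.64%. Results are therefore given with all libraries and with WT B and WT C left out, which keeps WT A and WT D only.

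None of the 39 genes differed between the genotypes by limma with Benjamini-Hochberg adjustment over all genes tested (adjusted p under 0.05), where 0.437% of all genes were called. Adjusted p-values of the 39 genes ranged from 0.301 to 0.991. An unadjusted p under 0.05 was reached by 4 genes, against 16.6% of all genes tested. These were Stx1a and Unc13a at lower values in the quadruple KO (7.28% of all genes tested) and Stx3 and Vamp2 at higher values (9.29%). That number moved with the libraries, to 18 without WT D and 11 without WT A, where 6040 and 4690 of the 17636 genes had such a p. It came to 2 without KO B, KO C or KO D, where 1620, 1395 and 1681 of the 17636 genes had one. With WT B and WT C left out it was 10 of 39 against 11.6% of all genes tested, and with array weights 9 of 39, where 2881 of the 17636 genes had such a p. The 10 were Stx1a, Unc13c, Cplx1, Syn2, Vamp1, Pclo and Unc13a at lower and Syngr1, Stx3 and Cplx4 at higher values in the quadruple KO. Their log2 fold changes ran from -0.30 to 0.19, and none was called. For 3 genes, Stx1a, Unc13a and Stx3, the 4 WT and the 4 quadruple KO values did not overlap, against 9.74% of all genes tested (3.58% lower and 6.16% higher). The log2 fold change, on the scale of log2(normalized count + 1), was negative for 21 genes and positive for 18, with a median of -0.06 and a range from -0.56 for Sv2c to 0.35 for Stx3.

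**Figure D1:**
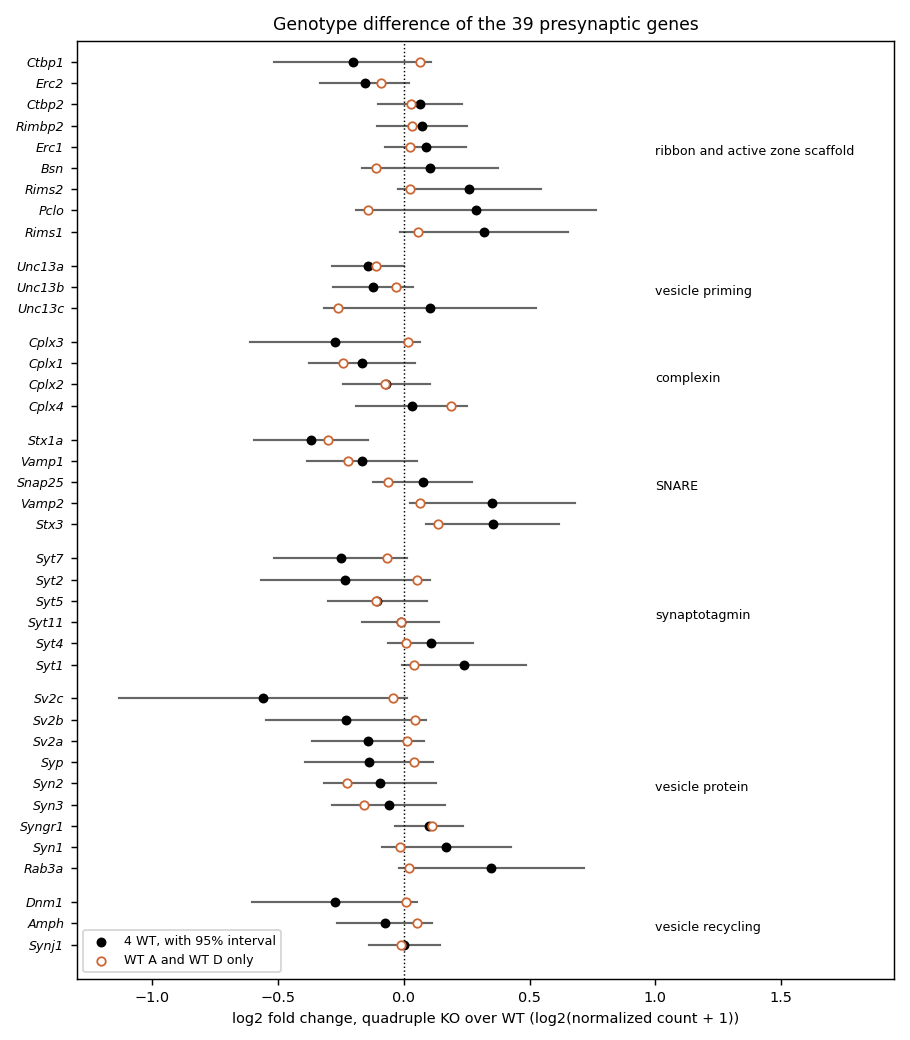
Log2 fold change of each of the 39 genes (x axis, quadruple KO over WT on the log2(normalized count + 1) scale), grouped by role. Filled points and lines are the limma estimate with its 95% interval from 4 WT and 4 quadruple KO libraries, and open points leave out WT B and WT C. The intervals of 4 genes leave out 0, and 26 open points lie within 0.1 of 0 against 12 filled ones.

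The precision of the fold changes was read from the 95% intervals. These are not adjusted over genes, so their half-width is not the smallest difference that could have been called. For 4 genes the interval left out 0, and none of these was called. The half-width of the interval ran from 0.14 for Syngr1 to 0.57 for Sv2c on the log2 scale, with a median of 0.22. For 38 of the 39 genes the interval left out a change of 2-fold or more, and for 30 it left out a change of 1.5-fold or more.

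The spread within WT was wider than within the quadruple KO for 36 of the 39 genes. The coefficient of variation had a median of 13.4% in WT and 4.39% in the quadruple KO. In 26 of the 39 genes both of these WT libraries, B and C, lay outside the range of the other 6 libraries, 13 above (28.2% of all genes tested) and 13 below (27.6%), against 55.9% of all genes tested and 66.0% of those at least as abundant as the lowest of the 39. Below the others were Bsn, Pclo, Rims1, Rims2, Erc1, Unc13c, Stx3, Snap25, Vamp2, Syt1, Syt4, Syn1 and Rab3a. Above them were Ctbp1, Erc2, Unc13b, Cplx3, Stx1a, Syt2, Syt7, Syp, Sv2a, Sv2b, Sv2c, Dnm1 and Amph. With WT B and WT C left out the sign changed for 14 genes (35.9%, against 34.5% of all genes tested), and again none of the 39 was called, against 0.527% of all genes tested. The part of RNA composition in these differences was not tested.

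**Figure D2:**
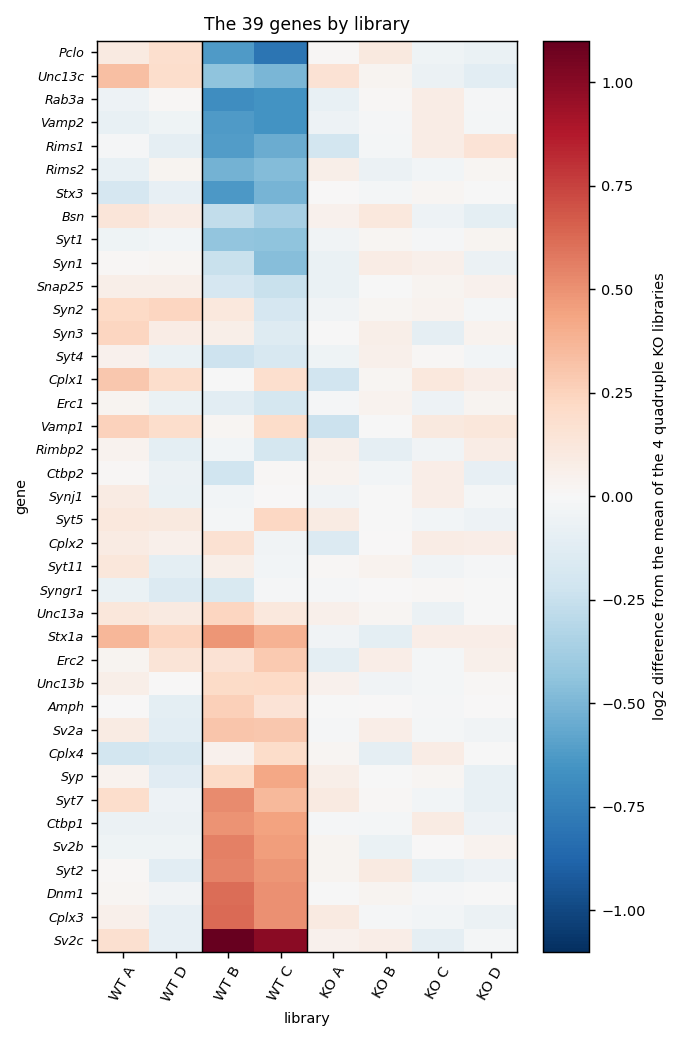
The 39 genes (rows) in the 8 libraries (columns), coloured by the log2 difference from the mean of the 4 quadruple KO libraries and sorted by the difference of WT B and WT C from WT A and WT D. The columns of WT B and WT C carry the strongest colours, from Pclo at the top to Sv2c at the bottom.

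Levels were compared between genes per kb of the canonical transcript. In WT the most abundant were Vamp2 (synaptobrevin 2, the vesicle SNARE) at 13732 normalized counts per kb, Snap25 (a SNARE of the plasma membrane) at 13463 and Syp (synaptophysin) at 12627. Next came Syt1, the fast calcium sensor, at 7398, Cplx4 at 5931 and Stx3 at 5560. The lowest were Stx1a at 115 and Syn3 at 46.6. Among syntaxins 1a, 1b and 3, Stx3 made up 80.0% ± 2.14 of the level per kb in WT (SD, n = 4) and Stx1a 1.699% ± 0.37, and among the complexins Cplx3 and Cplx4 made up 28.4% ± 3.58 and 46.4% ± 1.88.

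**Figure D3:**
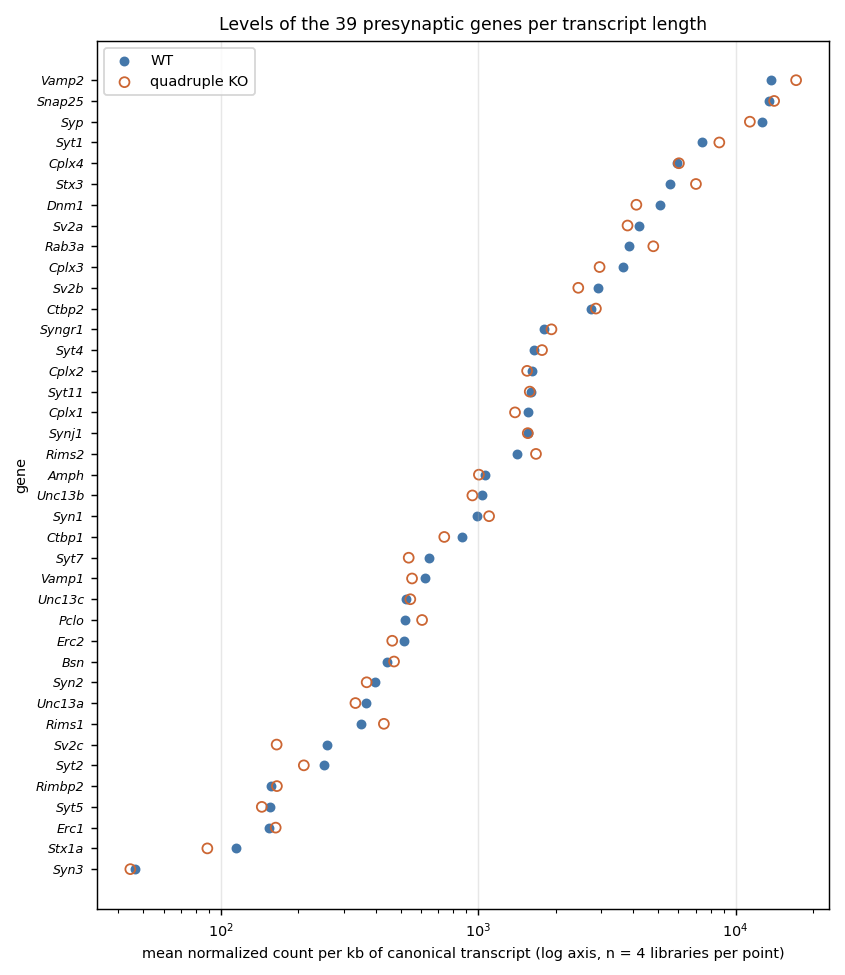
Mean normalized count per kb of canonical transcript (x axis, log scale) of the 39 genes (y axis), with filled points for WT and open points for the quadruple KO (n = 4 each). Vamp2, Snap25 and Syp are at the top in both genotypes and Syn3 is at the bottom.

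Of the 9 genes of the ribbon and active zone scaffold, none was called and none reached an unadjusted p under 0.05. Ctbp2 was at 10389, 8864, 10414 and 9883 normalized counts in WT A to D and at 10633, 10137, 10842 and 9727 in KO A to D. The genotypes overlapped, and its log2 fold change was 0.07 ± 0.07 (SE). Its paralog Ctbp1, a corepressor without a ribbon form, was at 4541, 6709, 6473 and 4544 in WT and at 4697, 4686, 5056 and 4575 in the quadruple KO, with WT B and WT C above all others.

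Rims2, the RIM protein of ribbon synapses that binds calcium channels and Rab3, was at 16321, 11995, 12420 and 17659 in WT and at 18061, 16540, 16889 and 17527 in the quadruple KO. Rims1 was at 3506, 2304, 2419 and 3287 in WT and at 3069, 3469, 3726 and 3916 in the quadruple KO. For both, WT B and WT C were the lowest libraries, and the log2 fold changes of 0.26 and 0.32 came to 0.02 and 0.06 with WT A and WT D only. Bsn (bassoon) and Pclo (piccolo), giant scaffold proteins of both synapse types, had log2 fold changes of 0.10 and 0.29, which turned to -0.11 and -0.14 in the same way. Rimbp2, Erc1 and Erc2 lay between -0.16 and 0.09.

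Munc13 proteins, encoded by the Unc13 genes, prime vesicles for fusion. Unc13a was at 3928, 4232, 3892 and 3853 in WT and at 3743, 3649, 3436 and 3579 in the quadruple KO. Every quadruple KO library lay below every WT library, by a log2 fold change of -0.14 ± 0.06 (SE) with an adjusted p of 0.302 by limma with Benjamini-Hochberg adjustment. Unc13a (chr8:72076694-72124685, minus strand) lies 1.503 Mb from Ncan, a targeted gene, and overlaps Colgalt1 and Jak3 on the other strand. The difference was not called. Flanking DNA of the knockout allele and the loss of the matrix proteins cannot be told apart here, and neither was tested as its source. Unc13b, the Munc13 of ribbon synapses, was at 14655, 16214, 16368 and 14066 in WT and at 14513, 13660, 13851 and 14197 in the quadruple KO, and the genotypes overlapped. Unc13c changed sign, from 0.10 with all libraries to -0.26 with WT A and WT D only.

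Complexins clamp and trigger the assembled SNARE complex. Cplx3 was at 8809, 13015, 12029 and 7963 in WT and at 9074, 8404, 8305 and 8117 in the quadruple KO, so that WT B and WT C stood alone. Cplx4 was at 9502, 11321, 12552 and 9681 in WT and at 11072, 10225, 11584 and 10875 in the quadruple KO. Its log2 fold change was 0.03 with all libraries and 0.19 with WT A and WT D only, and the called gene Lman1 lies 0.0105 Mb away. Cplx1, of conventional synapses, was at 3747, 3039, 3459 and 3477 in WT and at 2638, 3096, 3302 and 3203 in the quadruple KO. Cplx2 was at 8146, 8563, 7433 and 7941 in WT and at 6861, 7636, 8069 and 8038 in the quadruple KO. The genotypes overlapped for all 4 complexins and the adjusted p-values were 0.328 or higher by limma.

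SNARE proteins drive the fusion of the vesicle with the plasma membrane, and 5 of the genes encode them. Stx1a, the syntaxin of conventional synapses, was at 248, 269, 251 and 227 normalized counts in WT and at 186, 178, 202 and 202 in the quadruple KO. All quadruple KO libraries lay below all WT libraries, with a log2 fold change of -0.37 ± 0.10 (SE, 95% interval -0.60 to -0.14) and an adjusted p of 0.301 by limma with Benjamini-Hochberg adjustment. The fold change was -0.30 with WT A and WT D only. Stx3 was at 16142, 11837, 12874 and 17242 in WT and at 18343, 18091, 18647 and 18251 in the quadruple KO. All quadruple KO libraries lay above all WT libraries, with a log2 fold change of 0.35 ± 0.12 (SE, 95% interval 0.09 to 0.62) and an adjusted p of 0.301 by limma. WT B and WT C were the lowest, and the fold change fell to 0.14 with WT A and WT D only. The exact permutation test gave a two-sided p of 0.0286 for both genes and for Unc13a. This is the smallest it can give, and any gene whose genotypes do not overlap reaches it. It therefore adds nothing to the lack of overlap.

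Summed markers of retinal cell types are given beside these syntaxins. The 7 rod markers summed to 1271562 to 1690222 normalized counts in WT and to 1698462 to 1835447 in the quadruple KO, and the 7 bipolar markers to 39338 to 44561 and 44692 to 47244. The 6 ganglion cell markers summed to 23176 to 25893 in WT and to 19621 to 23374 in the quadruple KO, and the 7 amacrine markers to 27274 to 32260 and 27384 to 28724. The rod and bipolar sums did not overlap between the genotypes, and the ganglion and amacrine sums did. The ganglion overlap came from WT B alone, at 23176, as the other WT libraries lay at 24184 or higher. With WT B and WT C left out the log2 difference of the rod sum went from 0.21 to 0.09. That of the bipolar sum went from 0.09 to 0.06, of the ganglion sum from -0.17 to -0.19 and of the amacrine sum from -0.05 to 0.02. The 5 Müller glia markers summed to a mean of 170621 in WT B and WT C, 122847 in WT A and WT D and 118769 in the quadruple KO. In these whole retinae fewer cells of a type and less RNA per cell cannot be told apart, and the part of cell composition was not tested.

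**Figure D4:**
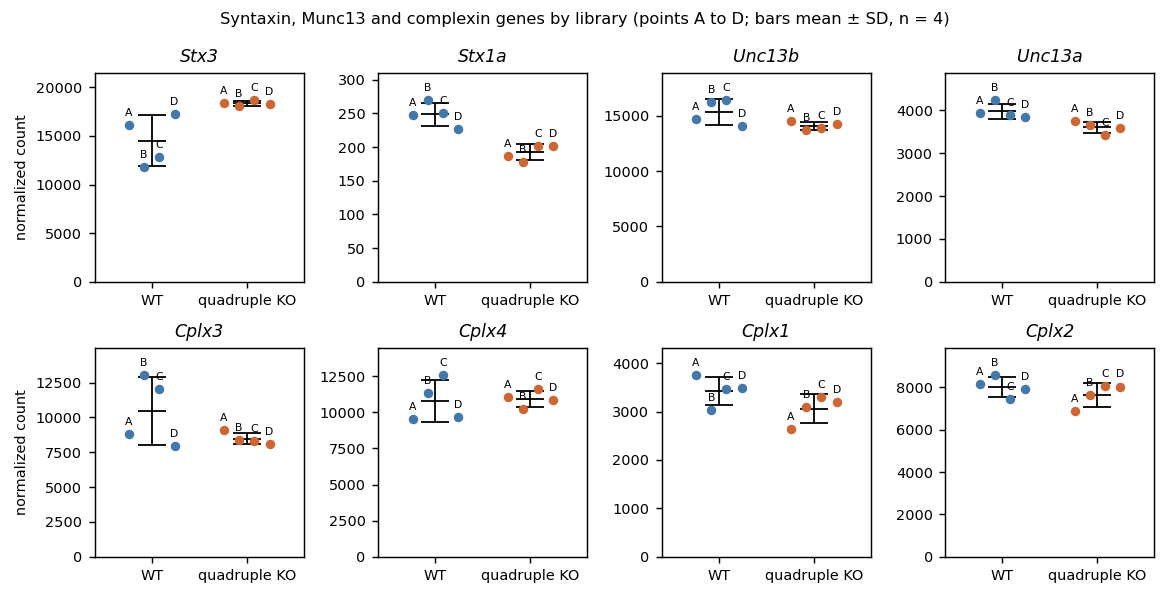
Normalized counts (y axis, from 0) of the syntaxin, Munc13 and complexin genes by library, with WT and quadruple KO side by side, letters for the libraries and bars for mean ± SD (n = 4). Stx1a and Unc13a are lower and Stx3 higher in all 4 quadruple KO libraries, while the complexins overlap.

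Among the other SNARE genes, Vamp2 was at 18361, 12669, 12337 and 18868 in WT and at 18776, 19346, 20636 and 19170 in the quadruple KO. WT B and WT C alone lay far below the rest, and the log2 fold change of 0.35 came to 0.06 without them. Snap25 and Vamp1 (synaptobrevin 1) had log2 fold changes of 0.08 and -0.17, and overlapped.

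The 6 synaptotagmins, calcium sensors and related vesicle proteins, had log2 fold changes from -0.25 for Syt7, linked to slow and asynchronous release, to 0.24 for Syt1. None reached an unadjusted p under 0.05. With WT A and WT D only, all 6 lay between -0.11 and 0.05. Syt11 lies 0.722 Mb from Bcan, and its log2 fold change was -0.01.

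The vesicle proteins made up 9 of the genes. Sv2b, found in photoreceptor terminals, was at 19757, 29814, 27989 and 19718 in WT and at 20745, 19368, 20465 and 20896 in the quadruple KO. Sv2a was at 17583, 20315, 20262 and 15200 in WT and at 16328, 17362, 16239 and 16053 in the quadruple KO. In both genes WT B and WT C were the highest libraries. Sv2c had the largest log2 fold change of the 39 genes, -0.56 ± 0.25 (SE), from 1690, 3342, 2991 and 1410 in WT and 1547, 1579, 1399 and 1478 in the quadruple KO. Without WT B and WT C it came to -0.04. Rab3a, the small GTPase of vesicle docking, likewise went from 0.35 to 0.02 and lies 0.634 Mb from Ncan.

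The synapsins tether the reserve pool of vesicles at conventional synapses and are missing from ribbon terminals. Syn2 was at 1457, 1350, 1101 and 1468 in WT and at 1217, 1268, 1282 and 1231 in the quadruple KO, which overlap. Its log2 fold change was -0.10 with all libraries and -0.23 with WT A and WT D only, at an adjusted p of 0.167 by limma with Benjamini-Hochberg adjustment. Of the level of all synapsins per kb, Syn2 made up 27.0% to 29.0% in WT and 23.6% to 24.9% in the quadruple KO, and Syn1 67.7% to 69.9% and 72.0% to 73.5%. These shares did not overlap and were not tested.

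The 3 genes of vesicle recycling, Dnm1 (dynamin 1, which severs endocytic vesicles), Amph (amphiphysin) and Synj1 (synaptojanin 1), had log2 fold changes of -0.28, -0.08 and 0.00. With WT A and WT D only they lay between -0.01 and 0.05.

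Ribbon-enriched genes were then set against their paralogs within each library, as 6 log2 ratios with two-sided exact permutation tests. The paralogs were those taken as conventional, except Ctbp1, which was placed in neither class. The ratio of Stx3 to Stx1a was 64.9, 43.8, 51.1 and 75.8 in WT A to D and 97.9, 101, 91.8 and 89.9 in KO A to D. All quadruple KO libraries were above all WT libraries, by 0.72 on the log2 scale with an exact permutation p of 0.0286 (0.171 after Benjamini-Hochberg adjustment over the 6 ratios). With WT A and WT D only the difference was 0.44, at the smallest p that design allows, 0.0667 (exact permutation test). Every quadruple KO library was above every WT library in Stx3 and below it in Stx1a. The ratio of these genes therefore had to separate, and its exact p-values add nothing to the values of the single genes. The other 5 ratios overlapped. Their differences were 0.27 for Ctbp2 over Ctbp1 (exact permutation p = 0.4), -0.01 for Cplx3 and Cplx4 over Cplx1 and Cplx2 (exact p = 1), -0.06 for Rims2 over Rims1 (exact p = 0.571), 0.02 for Unc13b over Unc13a (exact p = 0.714) and -0.09 for Sv2b over Sv2a (exact p = 0.371), all with adjusted p-values of 0.8 or higher. The complexin difference was 0.24 with WT A and WT D only, at an exact permutation p of 0.2. Since 0.0286 is the smallest p of each test, a lone separated ratio among the 6 can reach no adjusted p below 0.171. A common shift of ribbon-enriched against conventional genes was not tested.

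**Figure D5:**
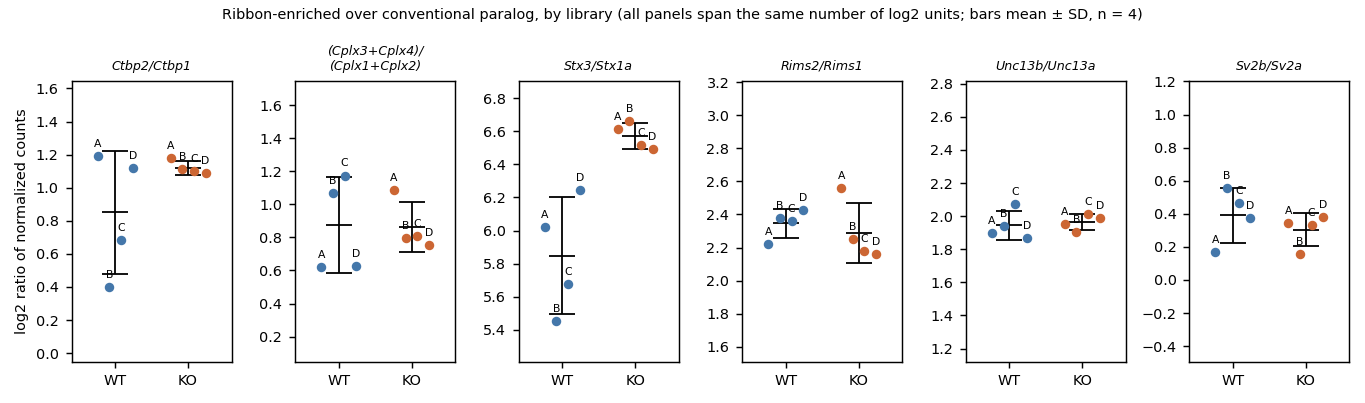
Log2 ratio of ribbon-enriched genes to their paralogs (y axis) in each library, with bars for mean ± SD (n = 4). The paralogs are those taken as conventional, except Ctbp1. Each pair has 1 panel, and all panels span the same number of log2 units. The ratio of Stx3 to Stx1a is the 1 pair of 6 whose genotypes do not overlap.

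By synapse class, the 7 ribbon-enriched genes had a median log2 fold change of 0.03, 4 positive and 3 negative, and the 9 conventional genes one of -0.10, 2 positive and 7 negative, beside a median of -0.000183 over all genes tested. With WT A and WT D only the medians were 0.03 and -0.11.

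By position, 5 of the 39 genes lie within 1 Mb of a called gene, namely Cplx4, Syt4, Vamp1, Rims1 and Syt11, and 4 lie within 10 Mb of a targeted gene, namely Rab3a, Syt11, Unc13a and Sv2a. The shares of all genes tested within these distances are not given, so the counts cannot be read as an excess.

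A wider list of 98 presynaptic genes was examined next, of which 96 were in the table. None was called by limma (background 0.437%), and 17 of 96 had an unadjusted p under 0.05 (17.7%, against 16.6% of all genes tested), 9 lower and 8 higher. That number moved with the libraries too, as did the number over all genes tested. It was 40 without WT D and 31 without WT A, where 6040 and 4690 of the 17636 genes had such a p. It was 8 without KO A or KO C (1831 and 1395 of all genes) and 9 without WT C or KO B (1521 and 1620). Without WT B or KO D it was 10 (1366 and 1681). With WT B and WT C left out it was 11 of 96, against 11.6% of all genes tested. The 5 with the smallest p were Doc2b, a calcium sensor of spontaneous release, with a log2 fold change of 0.30, Itsn2 (intersectin 2, endocytosis) with 0.34, Syt9 with 0.38, Ppfia4 (liprin-alpha-4) with -0.38 and Syt6 with -0.35. Each had an adjusted p of 0.301 by limma with Benjamini-Hochberg adjustment. With WT A and WT D only the log2 fold changes came to 0.20, 0.18, 0.17, -0.19 and -0.19 in the same order. In each of the 5 genes both WT B and WT C lay outside the range of the other libraries. The same was seen in 66.7% of the wider list and 55.9% of all genes tested. Doc2b was at 2696, 2322, 2601 and 2916 in WT and at 3104, 3134, 3433 and 3236 in the quadruple KO, which did not overlap. Itsn2, Syt9 and Ppfia4 did not overlap either, and Syt6 did. In the wider list 13 of 96 genes did not overlap (13.5%, against 9.74% of all genes tested). Of these 4 were lower and 9 higher, against 3.58% and 6.16% of all genes tested.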

How the data were processed

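Total RNA libraries from 4 WT and 4 quadruple KO retina samples were compared. Per the submitters' processing notes and the paper's methods, the authors trimmed reads with Trim Galore 0.6.7, aligned them to GRCm39 with STAR 2.7.9a, estimated gene counts with Salmon 1.5.2 and normalized them with DESeq2 1.32.0. The deposited values are normalized counts, that is estimated counts divided by normalization factors. Whether counting used strand is not given in the sources used here. The authors' own log2 fold changes with their standard errors, test statistics (a score per gene from the Wald test) and p-values were deposited too and were not used.

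Values were put on the scale of log2(normalized count + 1), genes with a mean of at least 10 were tested with limma 3.58.1 in R 4.3.3 (trended eBayes, no covariate), with Benjamini-Hochberg adjustment over the 17636 genes. Single ratios were tested by two-sided exact permutation tests. Steps were tested on simulated data. Depth was estimated from the spacing of low values. Transcripts, lengths and positions came from GENCODE for GRCm39. Genes with values in every library were those whose genotypes did not overlap and both sides of each ratio; Vamp2, Sv2c, Syn2 and the family shares were added after their values were seen. The genes and lists, WT B and WT C left out included, were chosen with earlier results of these data known. Alternatives were other scalings, filters, pseudocounts, weights, a replicate block, eBayes without trend and a threshold of 0.01 on the adjusted p. WT B and WT C were also left out together, and each library in turn. Summaries and plots used Python 3.11.15, pandas 2.3.3, scipy 1.17.1 and matplotlib 3.10.9.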

Additional observations from a re-analysis of the deposited data

How the results depend on the processing

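None of the 39 genes was called in any of the 19 alternatives run, whose lowest adjusted p was 0.0769 (Stx3 without WT D, by limma), and none of the wider list was called in any of them. Stx1a, Stx3 and Unc13a kept their signs in all of them. The log2 difference in the ratio of Stx3 to Stx1a lay between 0.59 and 0.85 with each library left out in turn. Of 741 fold changes of the 39 genes over these alternatives, 706 kept their sign and 35 did not. The filters, eBayes without trend, the replicate block and the threshold of 0.01 cannot change a fold change, so their agreement was fixed in advance. The threshold of 0.01 could add no call either. With WT B and WT C left out 14 of the 39 signs reversed, and with array weights 9. The cause of these changes was not tested.

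Over all genes, 77 were called in the reported fit, 143 with array weights, which gave WT B and WT C the lowest weights (0.164 and 0.156), and 56 to 89 with each library left out. With the letter as a replicate block 51 genes were called over all genes and 0 of the 39. The letters were not taken as pairs, because the deviations of same-lettered libraries correlated by -0.0097, -0.109, 0.098 and 0.0502 and 1 of 4 WT libraries correlated best with its own letter.

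With WT B and WT C left out, log2 fold changes turned sign to 0.065 for Ctbp1, -0.11 for Bsn, -0.14 for Pclo, -0.26 for Unc13c, 0.016 for Cplx3, -0.062 for Snap25, 0.050 for Syt2, -0.016 for Syn1, 0.042 for Syp, 0.012 for Sv2a, 0.045 for Sv2b, 0.010 for Dnm1, 0.051 for Amph and -0.0097 for Synj1, and log2 ratios to -0.037 for Ctbp2 over Ctbp1, 0.24 for the complexins and 0.032 for Sv2b over Sv2a. With array weights they turned to 0.024 for Ctbp1, -0.083 for Bsn, -0.052 for Pclo, -0.000576 for Rimbp2, -0.23 for Unc13c, -0.042 for Snap25, -3.22e-05 for Syt4, 0.0067 for Amph and -0.045 for Synj1. Quantile normalization gave 0.016 for Syt11, and median-ratio rescaling gave -0.0043 for Synj1. With each library left out in turn, values that crossed 0 ran from -0.029 to 0.25 for Unc13c, -0.025 to 0.11 for Cplx4, -0.051 to 0.025 for Syt11, -0.022 to 0.032 for Synj1, -0.096 to 0.088 for the complexin ratio and -0.0053 to 0.063 for Unc13b over Unc13a. Depth was known only as an estimate.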
